A study of Mus musculus with 10 samples.

Results

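The genes described here are those named for the cytosolic translation initiation factors (eIF) and elongation factors (eEF) of the mouse, called factors below. They include a few that are not themselves factors: the methyltransferase genes Eef1akmt1 and Eef2kmt, the eIF4E-binding transporter gene Eif4enif1 and Eif2c5, an old symbol of an argonaute-family gene. They are all genes whose symbol is Eif or Eef followed by a number, leaving out pseudogenes and the kinases and binding proteins that act on these factors (Eif2ak, Eef2k and Eif4ebp). The rule found 58 genes in 58 of the 46957 loci measured, and 54 of them passed the filter on low counts. Their messages were measured by RNA sequencing in tumour-associated macrophages, sorted as live (7AAD-) cells that carried CD45, CD11b and F4/80 and lacked CD8, Ly6C and Ly6G. The tumours were of 4T1, a mouse mammary carcinoma line placed in the mammary fat pad, and the hosts were BALB/cJ mice whose age and sex the labels do not give. The vehicle group (5 samples) came from mice given PBS. The JHU083 group (5 samples) came from mice given JHU083, a prodrug of the glutamine antagonist 6-diazo-5-oxo-L-norleucine, at 1 mg/kg from day 7 to day 13. All tumours were harvested on day 14, and the comparison asks what glutamine antagonism did to the messages of these macrophages. The labels do not say whether a sample is 1 animal or a pool, so p-values measure the spread between these samples, and the drug was given to the whole animal.

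Translation starts when eIF2 brings the initiator tRNA to the small ribosomal subunit, which eIF1, eIF1A and eIF3 hold open for scanning. The eIF4 factors bind the cap of the mRNA and unwind it, eIF5 and eIF5B finish the joining of the subunits, and eIF2B reloads eIF2 with GTP. In elongation, eEF1A delivers the charged tRNAs, eEF1B recharges eEF1A, eEF2 moves the ribosome along and eIF5A helps with difficult peptide bonds. Nutrient signals act on this machinery through phosphorylation of eIF2 and eEF2 and through the proteins that hold the cap-binding protein eIF4E; RNA sequencing measures none of these events.

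The libraries held 11147870 to 14575933 fragments in vehicle and 13638383 to 15740700 in JHU083. JHU083 replicate 3 stood apart: it was the highest of its group for 38 of the 54 translation factors tested and the lowest for 10, against 32.7% and 31.6% of all loci. The loci Rn18s-rs5 and Gm42418, which hold ribosomal RNA, were listed at 0 in vehicle replicates 2, 4 and 5 and in JHU083 replicates 1 and 3. Markers of other cells differed with treatment, in both directions. All 6 tumour epithelium markers were lower in JHU083, with a summed level of 287 to 629.6 CPM (the share of fragments, scaled to the same library size) in vehicle and 101 to 215 CPM in JHU083, and 4 of 5 fibroblast markers were lower, at 72.9 to 155 and 18.2 to 83.4 CPM. Of 3 endothelium markers 1 was lower, with sums of 122 to 209.5 and 33.9 to 82.1 CPM that did not overlap, and of 4 neutrophil markers tested 2 were lower, with sums of 35.15 to 46.4 and 12.55 to 65.1 CPM. Of 3 eosinophil markers tested 1 was higher, with sums of 3.60 to 9.88 and 6.56 to 16.7 CPM, as was the 1 B cell marker tested, with sums of 2.58 to 3.77 and 3.47 to 5.14 CPM. The 6 macrophage markers summed to 7746 to 9534 CPM in vehicle and to 9549 to 11810 CPM in JHU083, with 3 of them higher, and no defining marker of any list was at 0 in all samples. Of 20 proliferation genes, 18 fell and the median log2 fold change was -1.03, with the exceptions Mki67 and Pcna. Their part in the changes below was not tested, and in sorted bulk samples fewer cells of a type and less RNA per cell cannot be told apart.

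With edgeR's quasi-likelihood test, Benjamini-Hochberg adjustment over the 12500 loci tested and a call at an adjusted p under 0.05, 21 of the 54 factors changed (38.9%), beside 36.7% of all loci. Of these, 16 fell (29.6%, beside 18.3% of all loci) and 5 rose (9.26%, beside 18.4%). The log2 fold changes lay between -0.52 and 0.44, with a median of -0.16 beside 0.01 over all loci, and 36 of the 54 were negative. The share of factors called was thus near that of all loci, and the changes were small. The factors that fell were Eif5a, Eif3g, Eif1ad, Eif2b4, Eif3b, Eef1akmt1, Eif2b1, Eif1ax, Eif4a3, Eif6, Eef2kmt, Eef1g, Eif2b2, Eif4g1, Eif3d and Eif3l, and those that rose were Eif1a, Eif5, Eif4e3, Eif4a2 and Eif4g2. All 5 JHU083 samples lay below all 5 vehicle samples for 7 factors (13.0%, beside 11.1% of loci) and above them for 4 (7.41%, beside 11.2%). With DESeq2, 20 factors were lower and 5 higher, beside 19.9% and 19.2% of loci.

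The count of factors called lower depended on single libraries. Without JHU083 replicate 3 it was 27, beside 23.2% of all loci, and 8 factors were higher, beside 22.9%. Without JHU083 replicate 1 or 2 it was 10, beside 16.3% and 16.2% of all loci. Among the 16 factors called lower, JHU083 replicate 3 was the highest of its group for 14. It lay within or above the vehicle range for 10. The other 4 JHU083 samples were all below every vehicle sample for 14 of the 16. These factors were picked by their calls on the same values, which favours such a count. Among all factors tested, called or not, the count was 20, and it has no share of all loci beside it. Scaling by library size alone took the median of all loci from 0.01 to -0.07 and that of the factors from -0.16 to -0.24, with 27 lower and 3 higher beside 25.1% and 12.5% of all loci. Among the samples with the ribosomal RNA loci at 0 (3 vehicle, 2 JHU083) no factor passed in either direction (3 higher and 6 lower at an unadjusted p under 0.05), beside 4.18% of loci higher and 4.61% lower. Among the others (2 vehicle, 3 JHU083) 14 were lower and 0 higher (23 and 4 at an unadjusted p under 0.05), beside 11.9% and 9.86%.

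**Figure D1:**
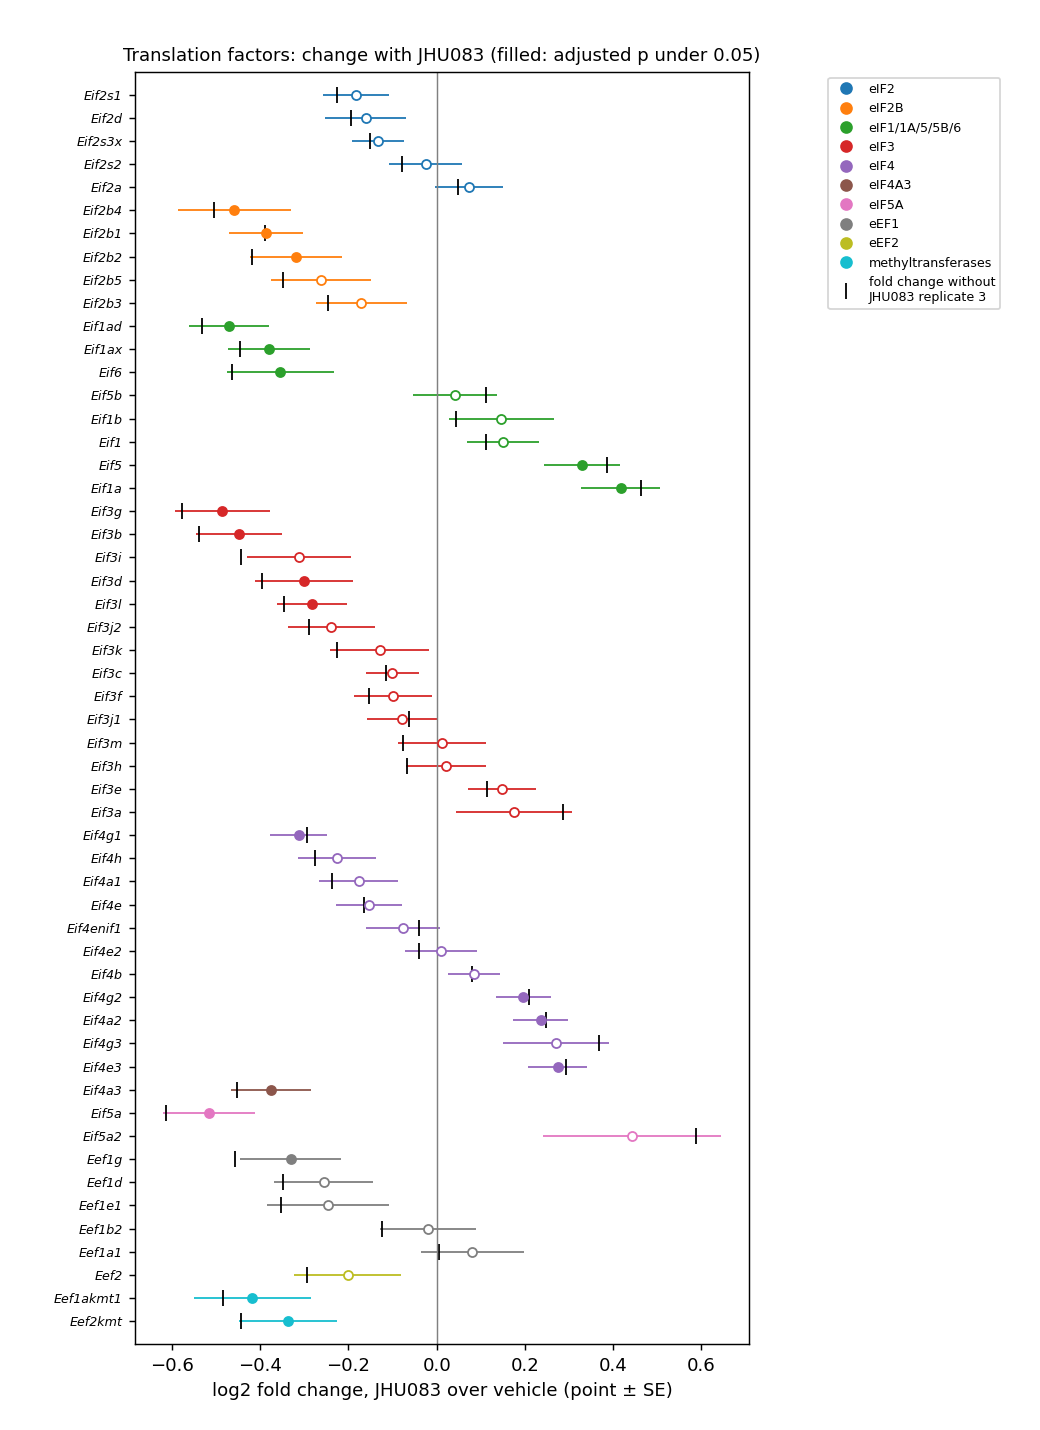
Log2 fold change of JHU083 over vehicle (horizontal axis, point and standard error, n = 5 and 5) for each of the 54 translation factors tested, coloured by complex, with filled points for an adjusted p under 0.05 and a black tick for the value without JHU083 replicate 3. The values run from -0.52 for Eif5a to 0.44 for Eif5a2, and all 5 eIF2B subunits are left of 0.

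No gene of eIF2 itself passed the test. eIF2 is the trimer that carries the initiator tRNA, and Eif2s1 encodes its alpha subunit, which the stress kinases phosphorylate. Eif2s1 stood at 110.1, 105, 110.0, 99.6 and 109.8 CPM in vehicle replicates 1 to 5 and at 85.6, 86.6, 106, 97.3 and 95.8 CPM in JHU083 replicates 1 to 5, the order in which all values below are given. JHU083 replicate 3 lay within the vehicle values and the other 4 were below them, and the difference did not pass the test (log2 fold change -0.18 ± 0.07 (SE), adjusted p = 0.0675 by edgeR). Eif2s3x, the X-linked gene of the gamma subunit, was at 249.9, 250.2, 260.5, 256 and 257 CPM in vehicle and 232, 219, 246, 238 and 228 CPM in JHU083. Its groups did not overlap, but the difference of -0.13 ± 0.06 did not pass (adjusted p = 0.0925). Across the 5 members tested, which also include Eif2s2 (beta subunit) and the related tRNA carriers Eif2a and Eif2d, log2 fold changes lay between -0.18 and 0.07. Eif2s2 was the most abundant of them per length (73.9 ± 3.73 FPKM with vehicle and 71.8 ± 7.95 FPKM with JHU083, SD, n = 5), with a log2 fold change of -0.03 ± 0.08 (adjusted p = 0.835). None of the 5 passed with edgeR, 2 had an unadjusted p under 0.05 and DESeq2 called 2, Eif2s1 and Eif2s3x. The same 2 passed as lower without JHU083 replicate 3 (beside 23.2% of all loci), Eif2s1 at -0.23 (adjusted p = 0.0133) and Eif2s3x at -0.15 (adjusted p = 0.0395). They also passed with GC content and transcript length corrected for, at -0.32 (adjusted p = 0.00736, limma) and -0.20 (adjusted p = 0.0233), where Eif2s2 was at -0.22 (adjusted p = 0.129).

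eIF2B, the exchange factor that reloads eIF2 with GTP and is blocked by phosphorylated eIF2, had 3 of 5 subunit genes that fell and 0 that rose, beside 18.3% of all loci lower and 18.4% higher. All 5 log2 fold changes were negative with a median of -0.32, and the 3 that passed were those of Eif2b4 (delta subunit), Eif2b1 (alpha) and Eif2b2 (beta). Eif2b1 stood at 29.2, 25.3, 27.8, 26.9 and 25.7 CPM in vehicle and 18.1, 20.7, 20.9, 21.9 and 21.5 CPM in JHU083. Every JHU083 sample was below every vehicle sample, with a log2 fold change of -0.39 ± 0.08 (adjusted p = 0.0028). Eif2b4 was at 34.8, 26.3, 20.4, 29.5 and 31.9 CPM in vehicle and 18.7, 20.8, 23.6, 19.6 and 21.3 CPM in JHU083. Vehicle replicate 3 was the low sample of its group and lay among the JHU083 values, and the log2 fold change was -0.46 ± 0.13 (adjusted p = 0.0126). Eif2b2, the most abundant subunit per length (93.0 ± 11.1 FPKM with vehicle and 81.2 ± 13.0 FPKM with JHU083, SD, n = 5), stood at 105, 104, 103, 119.6 and 109 CPM in vehicle and 73.0, 75.2, 110.3, 85.6 and 88.3 CPM in JHU083. JHU083 replicate 3 was inside the vehicle range and the other 4 below it, and the log2 fold change was -0.32 ± 0.10 (adjusted p = 0.0267) and -0.42 (adjusted p = 0.000704) without that replicate. Leaving out vehicle replicate 4 or JHU083 replicate 1, 2 or 4 ended the call for Eif2b2. With GC content and length corrected for, only Eif2b1 of these 3 stayed past the threshold, at -0.32 (adjusted p = 0.005, limma), with Eif2b4 at -0.24 (adjusted p = 0.0982) and Eif2b2 at -0.16 (adjusted p = 0.11). The values for the catalytic subunit gene Eif2b5 were -0.26 ± 0.11 (adjusted p = 0.0819) and for Eif2b3 -0.17 ± 0.10 (adjusted p = 0.206). Both were also called lower without JHU083 replicate 3, at -0.35 (adjusted p = 0.0102) and -0.25 (adjusted p = 0.0395). In that fit all 5 subunit genes passed as lower, beside 23.2% of all loci.

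The promoters of the 3 eIF2B genes that fell share a short motif, shown because these subunits moved together in the edgeR fit. The genes were picked by their calls: the window of Eif2b5 does not hold the motif, and Eif2b3 had no window. CCGGAA is the core bound by transcription factors of the ETS family, and each of these 30-base stretches from RefSeq (GRCm38.p6), read 5′ to 3′ on the gene's strand, holds it in capitals, for Eif2b1 as its complement on the other strand. They lie at chr5:124579119-124579148 (minus strand), chr12:85219485-85219514 (plus strand) and chr5:31193121-31193150 (minus strand). A match describes the letters and does not show a bound site.
Eif2b1: ggcgcactcgatTTCCGGcgccgacgagtg
Eif2b2: acctctctcggcCCGGAAgtgaaacagtgc
Eif2b4: acccagtgcacgCCGGAAgttgtagtccgc

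The factors of scanning and start-site choice changed in both directions. Of 8 genes in this group, 2 rose (25%, beside 18.4% of all loci) and 3 fell (37.5%, beside 18.3%). eIF1A, which holds the ribosome in its scanning form, has an autosomal gene, Eif1a, and an X-linked gene, Eif1ax, and these moved apart. Eif1a stood at 100.3, 113, 118, 104 and 96.0 CPM in vehicle and 157, 125, 124, 153 and 150.0 CPM in JHU083. All JHU083 samples were above all vehicle samples, a log2 fold change of 0.42 ± 0.09 (adjusted p = 0.00257). Eif1ax, on chromosome X, 159372178 to 159389928 (GRCm38), stood at 66.1, 68.6, 61.0, 59.8 and 64.3 CPM in vehicle and 44.5, 41.4, 58.2, 51.5 and 50.4 CPM in JHU083. Here all JHU083 samples were below all vehicle samples, with replicate 3 the closest, a log2 fold change of -0.38 ± 0.09 (adjusted p = 0.0059). The 2 transcripts are close in sequence, and how the counting treated fragments that match both is not given in the sources used here.

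Eif5, which encodes the GTPase-activating partner of eIF2, rose: it was at 239.8, 273, 285, 274 and 245 CPM in vehicle and 346, 314, 279, 381 and 334 CPM in JHU083. JHU083 replicate 3 lay within the vehicle values and the other 4 above them (log2 fold change 0.33 ± 0.09, adjusted p = 0.00865). Eif1ad, a gene with an eIF1A-like domain, fell: it was at 37.9 ± 2.21 CPM with vehicle and 27.4 ± 3.12 CPM with JHU083 (mean ± SD, n = 5), a log2 fold change of -0.47 ± 0.09 (adjusted p = 0.00119), with no overlap between the groups. Eif6, whose product keeps the large ribosomal subunit from joining too early, was at 147, 130.3, 110.4, 128 and 149 CPM in vehicle and 103, 80.6, 135, 101 and 101 CPM in JHU083. Its groups overlapped only through JHU083 replicate 3, and the log2 fold change of -0.35 ± 0.12 (adjusted p = 0.0332) lost its call when any of 7 libraries was left out (vehicle replicate 1, 2 or 5, or any JHU083 replicate but 3). Eif1, the most abundant of the group per length (369 ± 26.6 FPKM with vehicle and 425 ± 37.7 FPKM with JHU083, SD, n = 5), which guards the choice of start codon, had a log2 fold change of 0.15 ± 0.08 (adjusted p = 0.16). Its copy Eif1b had 0.15 ± 0.12 (adjusted p = 0.354) and Eif5b, the subunit-joining GTPase, 0.04 ± 0.09 (adjusted p = 0.76). With the correction for GC content and length, Eif1 was at 0.25 (adjusted p = 0.00637, limma) and Eif1b at 0.30 (adjusted p = 0.0057), both past the threshold.

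eIF3 is the largest initiation factor and the scaffold on which the others assemble at the small subunit. Of its 14 genes, 4 fell (28.6%, beside 18.3% of all loci), 0 rose (beside 18.4%) and 10 were negative, with a median log2 fold change of -0.11. In the fit without JHU083 replicate 3, 6 were lower (with Eif3i and Eif3j2) and 1 higher (Eif3a), beside 23.2% and 22.9% of all loci. The 4 were Eif3b and Eif3g, which belong to the module with the RNA-binding subunits, and Eif3l and Eif3d, from the core and the edge of the larger module. Eif3b, on chromosome 5, 140419328 to 140443360 (GRCm38), stood at 306.5, 274.1, 264.3, 277.2 and 318.3 CPM in vehicle and 208.0, 177.6, 263.6, 210.3 and 196.5 CPM in JHU083. JHU083 replicate 3 was just below the lowest vehicle sample and the other 4 lay far below, a log2 fold change of -0.45 ± 0.10 (adjusted p = 0.00287). Eif3g stood at 128, 111, 101, 113 and 133 CPM in vehicle and 83.5, 69.2, 105, 81.8 and 79.1 CPM in JHU083. The groups overlapped only through JHU083 replicate 3, which lay above vehicle replicate 3, and the log2 fold change was -0.49 ± 0.11 (adjusted p = 0.00324). Eif3i, the gene of a further subunit of that module, had -0.31 ± 0.12 (adjusted p = 0.0517), and -0.44 (adjusted p = 0.000605) without JHU083 replicate 3, where it lay above every vehicle sample.

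Eif3l fell: it was at 182 ± 5.44 CPM with vehicle and 149.6 ± 17.5 CPM with JHU083 (SD, n = 5), a log2 fold change of -0.28 ± 0.08 (adjusted p = 0.0132). Eif3d, whose product can bind the cap of some mRNAs, was at 171, 141, 137, 147 and 177 CPM in vehicle and 128, 103, 158, 124 and 115 CPM in JHU083. Only JHU083 replicate 3 reached the vehicle values, and the log2 fold change of -0.30 ± 0.11 (adjusted p = 0.0463) lost its call when vehicle replicate 1, 4 or 5 or any JHU083 replicate but 3 was left out. Other core subunits gave small values: Eif3a, the largest subunit, 0.18 ± 0.13 (adjusted p = 0.312), Eif3c -0.10, Eif3e 0.15, Eif3f -0.10, Eif3h 0.02, Eif3k -0.13 and Eif3m 0.01 on the log2 scale, none past the test. Eif3a stood at 255, 305, 361, 343 and 268 CPM in vehicle and 349.5, 381, 238, 371 and 389.8 CPM in JHU083. Here JHU083 replicate 3 was the low sample, below every vehicle sample, while the other 4 lay near or above the highest vehicle sample. Without it Eif3a was at 0.29 (adjusted p = 0.0256). Levels per length differed widely among subunits of 1 complex, from 6.34 ± 0.45 FPKM with vehicle and 5.39 ± 0.45 FPKM with JHU083 for Eif3j2 to 343 ± 39.2 FPKM with vehicle and 315 ± 48.8 FPKM with JHU083 for Eif3k (SD, n = 5).

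In the cap-binding and helicase group (eIF4), 3 of 11 genes tested rose (27.3%, beside 18.4% of all loci) and 1 fell (9.09%, beside 18.3%). Without JHU083 replicate 3 these counts were 4 and 3, beside 22.9% and 23.2% of all loci. Without vehicle replicate 3 they were 4 and 2, beside 2328 and 2267 of 12649 loci. Eif4g1, the main scaffold that joins the cap-binding protein to the helicase, stood at 286, 255, 255, 242 and 253 CPM in vehicle and 207, 218, 198, 208 and 209 CPM in JHU083. Every JHU083 sample was below every vehicle sample, and replicate 3 did not stand apart from its group, a log2 fold change of -0.31 ± 0.06 (adjusted p = 0.00195). Eif4g2, a scaffold that lacks the cap-binding arm, stood at 639, 661, 694, 655 and 642 CPM in vehicle and 741, 746, 732, 784 and 768 CPM in JHU083. It went the other way without overlap, a log2 fold change of 0.20 ± 0.06 (adjusted p = 0.0251), but the call was lost with library-size scaling, with no filter, with the GC and length correction (0.068, adjusted p = 0.621, limma) and when any of 6 libraries was left out (vehicle replicate 1, 2, 4 or 5, JHU083 replicate 4 or 5). Eif4g3, the close relative of Eif4g1, was at 123, 141, 173, 146 and 129.7 CPM in vehicle and 179, 204, 125, 176 and 176 CPM in JHU083. Apart from replicate 3, all JHU083 samples were above all vehicle samples, and the log2 fold change was 0.27 ± 0.12 (adjusted p = 0.0919), or 0.37 (adjusted p = 0.00561) without it.

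The helicase genes Eif4a1 and Eif4a2 encode near-identical proteins. Eif4a1, the most abundant eIF4 gene per length (629.7 ± 35.1 FPKM with vehicle and 564 ± 58.6 FPKM with JHU083, SD, n = 5), was at 1065, 950.0, 931, 989 and 1060.1 CPM in vehicle and 844, 764, 1036, 923 and 852 CPM in JHU083. The 4 JHU083 samples other than replicate 3 lay below all vehicle samples, and the log2 fold change of -0.18 ± 0.09 did not pass (adjusted p = 0.136; -0.24 and 0.0234 without replicate 3). Eif4a2 stood at 132, 135, 131, 145 and 133 CPM in vehicle and 157, 153, 155, 167 and 165 CPM in JHU083. All JHU083 samples were above all vehicle samples, a log2 fold change of 0.24 ± 0.06 (adjusted p = 0.00887), a call lost with library-size scaling, with no filter and with the GC and length correction (0.097, adjusted p = 0.174, limma). The locus of Eif4a2 also lists small nucleolar RNAs, and that of Eif4a1 lists predicted genes. Eif4e3, an unusual cap-binding protein, rose by 0.27 ± 0.07 on the log2 scale (adjusted p = 0.00594), with 74.1 ± 3.62 CPM with vehicle and 89.7 ± 4.14 CPM with JHU083 (SD, n = 5), but its locus also lists Foxp1, a transcription factor gene, and the value covers both. All 3 eIF4 genes that rose stand in loci that list several symbols. Of the 6 tested eIF4 genes with a locus to themselves 0 rose and 1 fell, beside 18.4% and 18.3% of all loci. Without JHU083 replicate 3 these counts were 1 (Eif4g3) and 2 (Eif4g1 and Eif4h), beside 22.9% and 23.2% of all loci. They were the same without vehicle replicate 3. The main cap-binding gene Eif4e had -0.15 ± 0.08 (adjusted p = 0.124), Eif4e2 0.01 ± 0.08 (adjusted p = 0.94), and the helicase partners Eif4b 0.09 ± 0.06 (adjusted p = 0.27) and Eif4h -0.23 ± 0.09 (adjusted p = 0.0593).

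Eif4a3 belongs by sequence to the same helicases but works in the exon junction complex. It stood at 141, 133, 128, 139 and 157 CPM in vehicle and 98.5, 95.8, 131, 108 and 105 CPM in JHU083. JHU083 replicate 3 lay above the lowest vehicle sample and the other 4 were below all of them, a log2 fold change of -0.38 ± 0.09 (adjusted p = 0.00548).

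Eif5a had the largest decrease of all factors in the edgeR fit over all 10 samples and the only called change of at least 0.5 on the log2 scale there. Without JHU083 replicate 3, Eif3g (-0.58), Eif3b (-0.54), Eif1ad (-0.53), Eif2b4 (-0.50) and Eif5a2 (0.59) were also called at that size. With GC content and length corrected for, Eif5a was at -0.35 and Eif1ax (-0.59), Eif1ad (-0.41) and Eif3j2 (-0.38) lay further from 0. Its product carries hypusine, an amino acid made from spermidine, and relieves ribosomes that stall. The gene lies on chromosome 11, 69916714 to 69921958 (GRCm38, GENCODE M21). Eif5a stood at 845, 731, 705, 742 and 862 CPM in vehicle and 520.0, 456, 689, 531 and 520.4 CPM in JHU083. All JHU083 samples were below all vehicle samples, with replicate 3 just under the lowest, and the log2 fold change was -0.52 ± 0.10 (fold 1.43, adjusted p = 0.00177). Its level per length was 688 ± 61.0 FPKM with vehicle and 484 ± 76.6 FPKM with JHU083 (SD, n = 5). The rare copy Eif5a2 was at 5.23, 5.71, 7.62, 4.61 and 5.87 CPM in vehicle and 8.66, 7.06, 4.55, 9.86 and 9.36 CPM in JHU083. Replicate 3 was the lowest of all 10 samples and the other 4 JHU083 samples overlapped the vehicle group only through vehicle replicate 3, and the log2 fold change was 0.44 ± 0.20 (adjusted p = 0.0989) with it and 0.59 (adjusted p = 0.00843) without it.

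Eif5a, Eif4g1 and Eif4a1 carry the E-box CACGTG in their promoters, the sequence bound by MYC and related factors, and are shown as an abundant factor that fell with no overlap, a scaffold that fell and a helicase that did not pass the test. The stretches are from RefSeq (GRCm38.p6), 5′ to 3′ on the gene's strand, with the E-box in capitals. They lie at chr11:69921443-69921472 (minus strand), chr16:20672661-20672690 (plus strand) and chr11:69672595-69672624 (minus strand).
Eif5a: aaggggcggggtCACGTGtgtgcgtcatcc
Eif4g1: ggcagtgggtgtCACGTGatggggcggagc
Eif4a1: cgatcgcctccgCACGTGtaaaggtgctgg

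Both motifs were counted, on both strands, in the windows from 250 bases before to 50 after the RefSeq start, which 45 of the 58 genes had. The E-box was in 11 (24.4%), beside 11.75% of genes of tested loci and 8.09% of all genes in the table. CCGGAA was in 21 (46.7%), beside 31.97% and 16.7%. Of the tested factors with CCGGAA, 10 of 21 fell and 1 rose. Of those without it, 3 of 21 fell and 1 rose. Over all tested loci with a window, 18.2% of those with CCGGAA and 18.7% of those without it were lower. Without JHU083 replicate 3 (23.2% of all loci lower), Eef1e1, Eef2, Eif2b5, Eif2s1, Eif2s3x, Eif4a1 and Eif4h, which lack CCGGAA, were called lower as well. The factors with it called lower stayed the same. With the GC and length correction (limma), Eif2b2, Eif2b4, Eif3d and Eef2kmt, which hold it, lost their calls. Eif2s1, Eif2s3x and Eif4e, which lack it, were then called lower. With the E-box 2 of 11 factors fell, and without it 11 of 31 fell and 2 rose. Over all loci, 18.6% were lower with and without the E-box. Without JHU083 replicate 3, Eef2, Eif4a1 and Eif4h, which hold the E-box, were called lower as well. So were Eef1e1, Eif2b5, Eif2s1 and Eif2s3x, which lack it. In that fit Eif3a and Eif5a2, which hold it, and Eif4g3, which lacks it, were called higher as well. These shares are descriptions without a test.

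Levels of the elongation factors differed widely between genes. Eef1a1 had the highest level per length of all factors (5589 ± 172 FPKM with vehicle and 5946 ± 757 FPKM with JHU083, SD, n = 5). It stood at 9719, 9145, 9542, 9467 and 9888 CPM in vehicle and 9689, 8968, 12208, 10488 and 9155 CPM in JHU083. The groups overlapped, JHU083 replicate 3 was the highest of all, and the difference did not pass (log2 fold change 0.08 ± 0.12, adjusted p = 0.617). Eef2, the translocase, was at 5030.3, 4514, 4490.3, 4799 and 5261 CPM in vehicle and 4426, 3653, 5258, 3996 and 3616 CPM in JHU083. Its JHU083 samples other than replicate 3 lay below all vehicle samples, and the log2 fold change was -0.20 ± 0.12 (adjusted p = 0.206; -0.29 and 0.0301 without replicate 3). For Eef2 the unadjusted p was not under 0.05 either, and DESeq2 did not call it. With the correction for GC content and length, Eef2 was at -0.022 (adjusted p = 0.886, limma).

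Of the exchange factor eEF1B, the gamma subunit gene Eef1g fell, and the catalytic subunit genes Eef1b2 and Eef1d did not pass. Eef1g stood at 626, 538, 524, 558 and 621 CPM in vehicle and 414, 376, 611, 458 and 421 CPM in JHU083. JHU083 replicate 3 lay among the highest vehicle values and the other 4 below all of them, a log2 fold change of -0.33 ± 0.11 (adjusted p = 0.0351). That call was lost when vehicle replicate 1, 4 or 5 or any JHU083 replicate but 3 was left out. Eef1b2 had -0.02 ± 0.11 (adjusted p = 0.907), Eef1d -0.26 ± 0.11 (adjusted p = 0.0882) and Eef1e1, which works in the tRNA synthetase complex, -0.25 ± 0.14 (adjusted p = 0.176). Without JHU083 replicate 3, Eef1d (-0.35, adjusted p = 0.00868) and Eef1e1 (-0.35, adjusted p = 0.0307) were called lower as well, and without vehicle replicate 2 so was Eef1d. Both methyltransferase genes fell. Eef1akmt1, which modifies eEF1A, had -0.42 ± 0.13 (adjusted p = 0.0241), with 13.6 ± 1.81 CPM with vehicle and 10.2 ± 1.63 CPM with JHU083 (SD, n = 5). Eef2kmt, which modifies eEF2, had -0.34 ± 0.11 (adjusted p = 0.028), with 35.3 ± 3.24 CPM with vehicle and 27.9 ± 4.67 CPM with JHU083 (SD, n = 5). Each of these calls was lost when vehicle replicate 1 or 5 or JHU083 replicate 1, 2 or 5 was left out, and for Eef2kmt also vehicle replicate 4 or JHU083 replicate 4.

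Some factors are known from textbooks as TOP mRNAs, which begin with a tract of pyrimidines and are held back from ribosomes when mTOR is inactive. They were listed after the values had been seen, as Eef1a1, Eef1b2, Eef1d, Eef1g, Eef2, Eif3e, Eif3f, Eif3h and Eif4b. Of these 9, 1 fell (Eef1g, 11.1%) and 0 rose, and the median log2 fold change was -0.02. Of the other 45 factors tested, 15 fell (33.3%) and 5 rose (11.1%), with a median of -0.17, beside 18.3% and 18.4% of all loci. Both counts of lower genes moved when single libraries were left out. They were 3 of 9 (Eef1g, Eef1d and Eef2) and 24 of 45 without JHU083 replicate 3, beside 23.2% of all loci. In that fit 8 of the 45 were higher, beside 22.9% of all loci. Without vehicle replicate 2 they were 2 of 9 and 14 of 45, beside 2016 of 12626 loci. In 7 of the 10 fits that left out a library (vehicle replicates 1, 4 and 5, JHU083 replicates 1, 2, 4 and 5) none of the 9 and 10 to 12 of the 45 were lower. In these fits 1899 to 2054 of 12595 to 12699 loci were lower. The cytosolic ribosomal proteins, the best known TOP group, had 3 of 83 lower and 0 higher (3.61% called, beside 36.7% of all loci) and a median of -0.12.

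**Figure D2:**
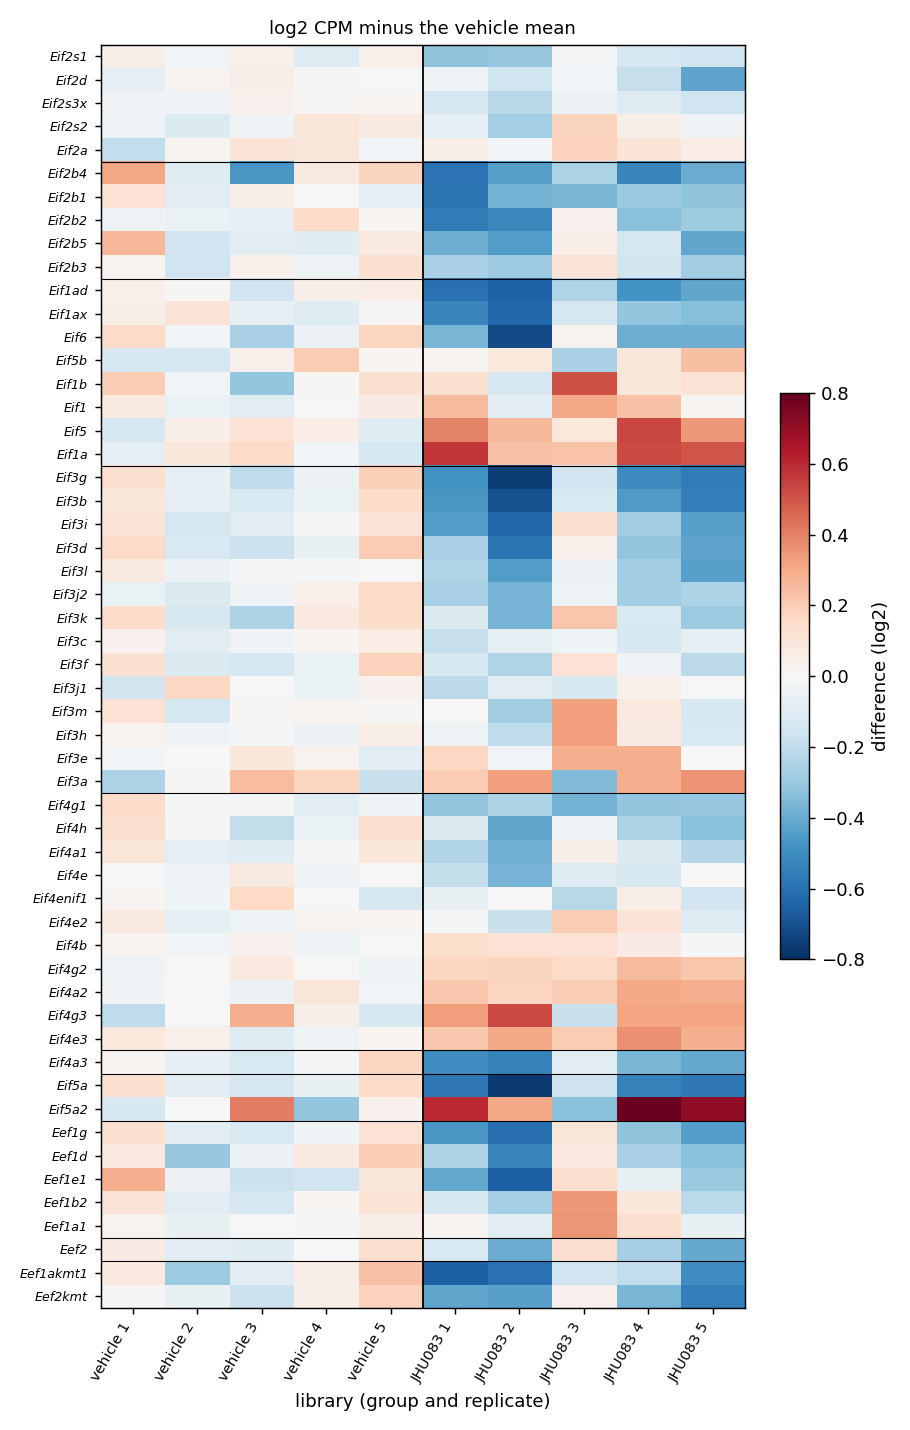
Level of each of the 54 factors (vertical axis, grouped by complex) in each of the 10 libraries (horizontal axis), as log2 CPM minus the vehicle mean, blue for lower and red for higher. JHU083 replicates 1, 2, 4 and 5 are blue for Eif5a, Eif3b and Eif3g, while JHU083 replicate 3 is the highest of its group for 38 of the 54 factors.

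Ratios between related factors in the same library do not depend on library scaling. They can still depend on GC content and transcript length, and no ratio was computed with the correction for these. With that correction (limma) log2 fold changes were -0.19 for Eif4a1, 0.097 for Eif4a2, -0.23 for Eif4g1, 0.068 for Eif4g2 and 0.29 for Eif4g3. They were -0.35 for Eif5a, 0.19 for Eif5a2, 0.13 for Eif4b and -0.064 for Eif4h. For Eif4e, Eif4e3, Eif1a and Eif1ax they were -0.34, 0.25, 0.27 and -0.59. Of 12 pairs, 10 had both genes past the filter, and 7 differed between the groups by an exact two-sided permutation test with Benjamini-Hochberg adjustment over the 10 pairs, whose smallest unadjusted p is 0.00794. The pairs share members and are not independent. The log2 ratio of Eif1a to Eif1ax was 0.60, 0.72, 0.95, 0.81 and 0.58 in vehicle and 1.82, 1.59, 1.09, 1.57 and 1.57 in JHU083. The groups did not overlap and differed by 0.80 ± 0.14 (SE, exact permutation test, adjusted p = 0.0198), the largest shift among pairs without overlap. For Eif4a1 over Eif4a2 the log2 ratio was 3.01, 2.81, 2.83, 2.77 and 2.99 in vehicle and 2.43, 2.33, 2.74, 2.47 and 2.37 in JHU083. Every JHU083 sample, replicate 3 included, was below every vehicle sample, a difference of -0.42 ± 0.09 (exact permutation test, adjusted p = 0.0198).

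The scaffold Eif4g1 declined relative to both of its relatives. Its log2 ratio to Eif4g2 was -1.16, -1.37, -1.44, -1.44 and -1.34 in vehicle and -1.84, -1.77, -1.88, -1.91 and -1.88 in JHU083, without overlap, a difference of -0.51 ± 0.06 (exact permutation test, adjusted p = 0.0198). To Eif4g3 it was 1.22, 0.85, 0.56, 0.73 and 0.97 in vehicle and 0.21, 0.09, 0.66, 0.24 and 0.24 in JHU083, where replicate 3 stood inside the vehicle range, a difference of -0.57 ± 0.15 (adjusted p = 0.0265). That pair missed the threshold without JHU083 replicate 2. Eif5a over Eif5a2 differed by -0.94 ± 0.32 (adjusted p = 0.0454), with replicate 3 the highest of its group, a call lost when any of 8 libraries was left out. Eif4e over Eif4e3 differed by -0.43 ± 0.09 (adjusted p = 0.0198), with the limit that the Eif4e3 locus lists Foxp1. Eif4b over Eif4h was higher by 0.31 ± 0.09 (adjusted p = 0.0265), a call lost without vehicle replicate 1, 2, 4 or 5. The pairs that did not pass were Eif1 over Eif1b (0.00 ± 0.09, adjusted p = 0.976), Eif4e over Eif4e2 (-0.16 ± 0.08, adjusted p = 0.0893) and Eif3j1 over Eif3j2 (0.16 ± 0.11, adjusted p = 0.132), all by the exact permutation test. With the deposited FPKM in place of fragments, which are not a fixed multiple of them, no pair passed by the exact permutation test, with adjusted p from 0.05291 to 0.102 for the 7 pairs.

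**Figure D3:**
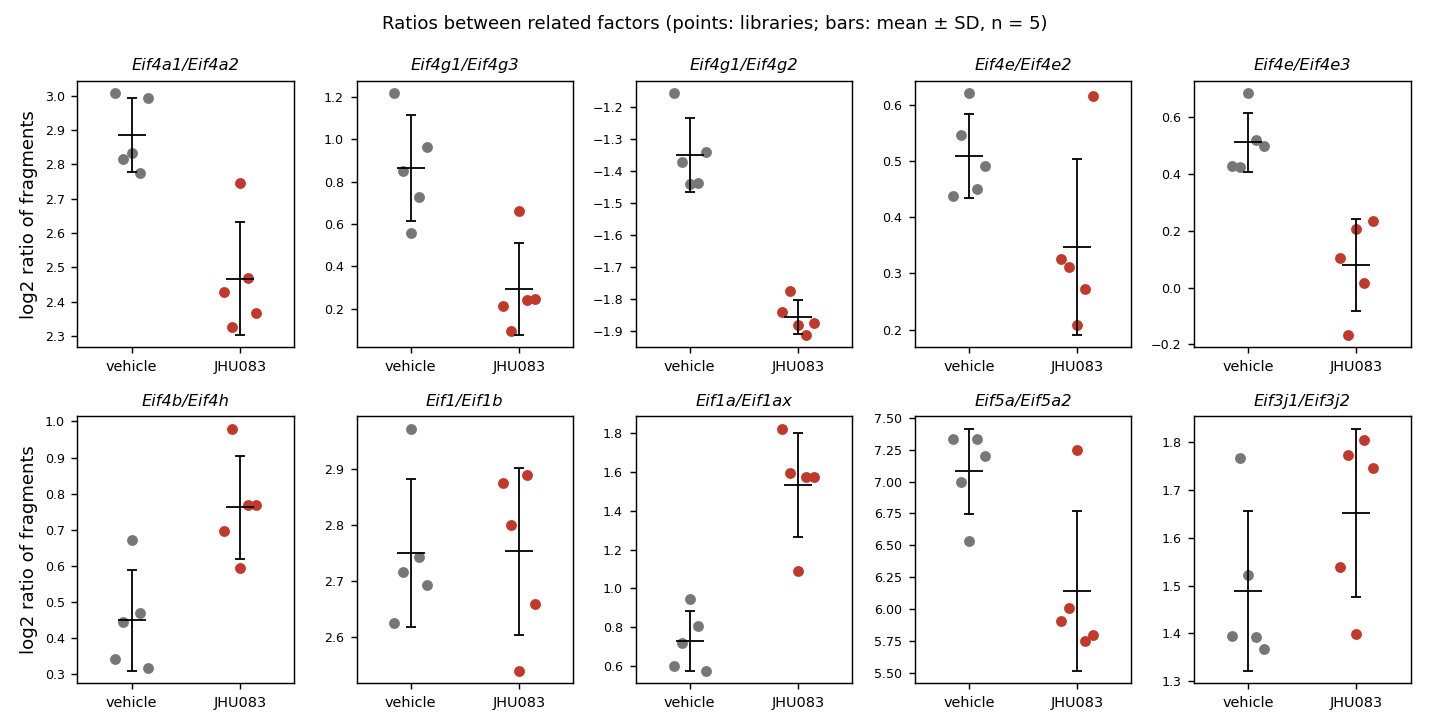
Log2 ratio of fragments (vertical axis) between 10 pairs of related factors, with 1 point per library, vehicle in grey and JHU083 in red, and bars for mean ± SD (n = 5). Eif1a over Eif1ax shifted up and Eif4a1 over Eif4a2 and Eif4g1 over Eif4g2 shifted down with no overlap between the groups.

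Genes that act on these factors were taken from lists by pathway step. Of 8 genes for eIF2 alpha kinases, their partners and phosphatase subunits, 4 rose (50%) and 2 fell (25%), beside 18.4% and 18.3% of all loci. The kinase genes moved apart: Eif2ak4, the amino acid sensor GCN2, fell (log2 fold change -0.55 ± 0.11, adjusted p = 0.00194), and Eif2ak3, the endoplasmic reticulum sensor PERK, rose (log2 fold change 0.43 ± 0.09, adjusted p = 0.00259). Impact, whose product restrains GCN2, rose by 0.56 ± 0.13 on the log2 scale (adjusted p = 0.00386), and Ppp1r15a, the stress-induced phosphatase subunit, by 0.35 ± 0.09 (adjusted p = 0.00669). Among 11 genes of mTOR and MNK signalling, 3 rose (27.3%) and 2 fell (18.2%), beside 18.4% and 18.3% of all loci. Pdcd4, an inhibitor of the eIF4A helicase, stood at 7.61, 7.16, 8.75, 9.04 and 6.26 CPM in vehicle and 11.9, 15.8, 13.3, 13.3 and 13.6 CPM in JHU083, higher in every treated sample than in any control, a log2 fold change of 0.81 ± 0.13 (adjusted p = 0.000252). Larp1, which binds TOP mRNAs, had -0.51 ± 0.08 (adjusted p = 0.000263). The eIF4E-binding protein gene Eif4ebp1 had -0.41 ± 0.11 (adjusted p = 0.00736) and Eif4ebp2 0.09 ± 0.09 (adjusted p = 0.479). Eif4ebp3 shares its locus with Ankhd1, so its value of 0.35 ± 0.13 (adjusted p = 0.0473) covers both, and its call was lost in 8 of the 10 fits that left out a library (all but vehicle replicate 3 and JHU083 replicate 3) and with limma-voom, RLE factors, library-size scaling, the stricter filter and the rounded deposited values.

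Of 8 genes for poly(A)-binding proteins and helicases, 4 rose (50%) and 1 fell (12.5%), beside 18.4% and 18.3% of all loci. The helicase Ddx3x had 0.38 ± 0.11 (adjusted p = 0.0124), a call lost with library-size scaling, and Pabpc4 -0.37 ± 0.07 (adjusted p = 0.00171). Paip2, a partner of the poly(A)-binding protein, had 0.27 ± 0.07 (adjusted p = 0.00777), and 0.14 with the GC and length correction (adjusted p = 0.0747, limma), which ended its call. Reinitiation, termination and recycling factors had 1 of 10 higher (10%, beside 18.4% of all loci) and 0 lower (beside 18.3%), the higher being the release factor Etf1 at 0.23 ± 0.08 (adjusted p = 0.0391), a call lost with library-size scaling, with no filter, with the GC and length correction and in 7 of the 10 fits that left out a library (vehicle replicates 1, 2, 4 and 5, JHU083 replicates 1, 4 and 5). Of 10 genes that modify or control the elongation factors, Eef2k rose and Dohh fell (10% each, beside 18.4% and 18.3% of all loci). Eef2k, the kinase that inactivates eEF2, stood at 32.7, 32.8, 33.1, 37.1 and 40.0 CPM in vehicle and 49.6, 63.3, 61.2, 51.2 and 51.1 CPM in JHU083. The groups did not overlap and its log2 fold change was 0.65 ± 0.10 (adjusted p = 0.000162), while its target gene Eef2 did not pass. Dohh, which completes hypusine on eIF5A, had -0.35 ± 0.10 (adjusted p = 0.0175), or -0.12 (adjusted p = 0.206, limma) with the GC and length correction, which ended the call. Of 9 mitochondrial translation factors 5 fell and 0 rose, with a median of -0.30, beside 18.3% of all loci lower, among them the elongation factors Tufm at -0.53 ± 0.11 (adjusted p = 0.00182) and Tsfm at -0.54 ± 0.16 (adjusted p = 0.0154). Of the other 3, Mrrf (-0.30 ± 0.11, adjusted p = 0.0411) lost its call in 8 of the 10 fits that left out a library (all but vehicle replicate 3 and JHU083 replicate 3), with no filter and with the GC and length correction, and Gfm2 (-0.33 ± 0.10, adjusted p = 0.0172) without vehicle replicate 5.

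Within the treated group, JHU083 replicate 3 stood apart by transcript length. For cell markers the same library had the lowest summed level of its group for tumour epithelium (101 CPM), fibroblasts (18.2 CPM) and eosinophils (6.56 CPM). It had the highest for macrophages (11810 CPM) and B cells (5.14 CPM). For endothelium (65.7 CPM), neutrophils (25.3 CPM), T cells (2.01 CPM), dendritic cells (7.455 CPM) and NK cells (7.455 CPM) it lay inside its group. The part of cell content in the place of this library was not tested. Its deviation from the median of the other 4 JHU083 libraries was positive for all 14 factors with a longest transcript under 2 kb, such as Eif1b at 0.41 on the log2 scale. Among the longest transcripts it was mixed: Eif5a2 at -0.99, Eif3a at -0.66, Eif4g3 at -0.50 and Eif5b at -0.35 were negative, Eif4g1 at -0.071 and Eif4g2 at -0.048 were near 0, and Eif1ax at 0.30 and Eif4e at 0.065 were positive. Spearman's rho between the deviation and length was -0.67 across the 54 factors and -0.52 across 12172 loci, given without a test, as the points share a library. The same measure against the rest of their group was 0.67 across the factors for vehicle replicate 3 and -0.59 and -0.58 for vehicle replicates 1 and 5. The log2 fold change itself had a rho of 0.40 with length and -0.56 with GC content across the factors, and of 0.17 and -0.26 across 12190 loci. A smooth curve of GC content and length was then removed from each sample. Limma without this step called 5 factors higher and 17 lower. With it limma called 6 higher and 16 lower, beside 22.4% and 17.3% of loci, and 3 and 12 of these were called by limma without it. The calls it ended were those of Eif6 at -0.14, Eif2b2 at -0.16, Eif2b4 at -0.24, Eif3d at -0.22 and Eef2kmt at -0.20 (adjusted p from 0.07 to 0.213), and of Eif4g2 at 0.068 and Eif4a2 at 0.097. Those still lower had mostly smaller log2 fold changes than without it: Eif5a -0.35, Eif1ad -0.41, Eif2b1 -0.32, Eif3b -0.29, Eif3g -0.29, Eif3l -0.23, Eif3i -0.31, Eif4g1 -0.23, Eif4a3 -0.23, Eef1g -0.25 and Eef1akmt1 -0.31, while Eif1ax was at -0.59. Eif1a, Eif5 and Eif4e3 were still higher, at 0.27, 0.19 and 0.25. Called by limma with the correction and not without it were Eif1, Eif1b and Eif4g3 as higher, at 0.25, 0.30 and 0.29, and Eif2s1, Eif2s3x, Eif3j2 and Eif4e as lower, at -0.32, -0.20, -0.38 and -0.34.

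**Figure D4:**
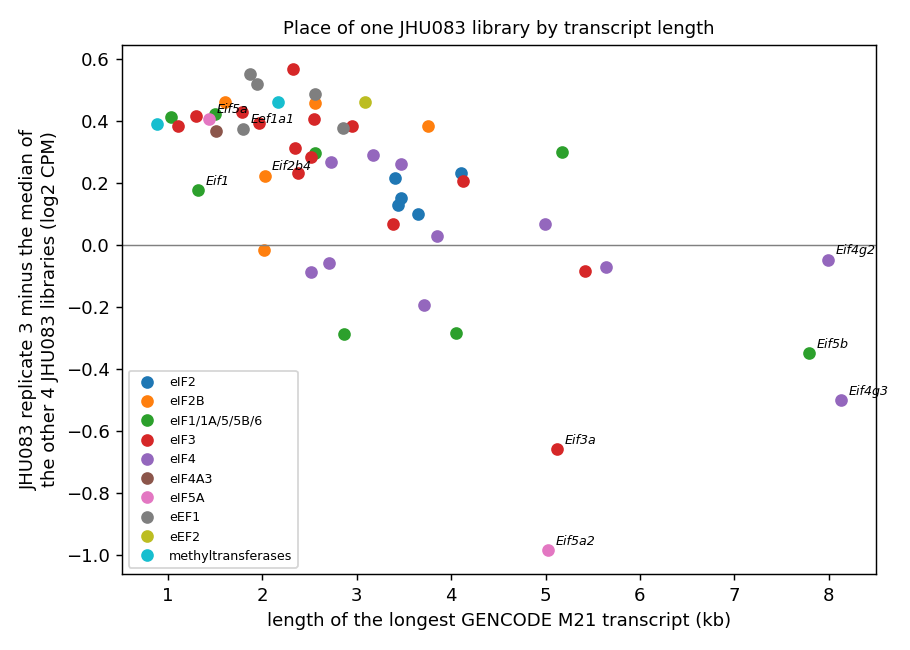
Deviation of JHU083 replicate 3 from the median of the other 4 JHU083 libraries (vertical axis, log2 CPM) against the length of the longest transcript (horizontal axis, kb) for the 54 factors, 1 point each, coloured by complex. All 14 factors under 2 kb lie above 0 and Eif3a, Eif4g3, Eif5a2 and Eif5b below it, a rho of -0.67 over all 54.

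The 4 genes that did not pass the filter were Eef1a2, the muscle and nerve form of eEF1A, with at most 4 fragments in a sample, Eif4e1b, an oocyte form of the cap-binding protein, with at most 1, Eif2s3y and Eif2c5. The Y-linked Eif2s3y and Eif2c5 were at 0 in all 10 samples. A count of 0 allows up to 3 fragments, or 0.269 CPM in the shallowest library, for counting error only. Eif1a, Eif5a and the other genes named above are given as the loci of the tables, and the library kit named in the labels does not mark strand, so fragments of an antisense neighbour would count with them.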

How the data were processed

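Polyadenylated RNA of 10 samples (5 vehicle, 5 JHU083) was made into paired-end libraries, per the labels' protocols. TopHat2 2.1.1, FastQC 0.11.2, bcl2fastq 2.17.1.14 and GRCm38 are named in the submitters' processing notes. The program that counted fragments and the annotation are not given in the sources used here. The authors deposited expected counts that are not whole but are multiples of a step per sample (0.888 to 1.17). Dividing by it gave whole numbers within 0.02 for 99.9% of values under 100 fragments, and the rounded fragments were tested. The authors also deposited FPKM, per the file headers as a normalized column and per its values. FPKM was used for levels per length and, in 1 alternative, for ratios. The 1 entry without a gene name (0.00132% to 0.00209% of fragments) was left out.

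Groups follow the labels. Counts were filtered with filterByExpr, normalized with TMM and tested on all loci with edgeR 4.0.16 (R 4.3.3), the quasi-likelihood F-test and Benjamini-Hochberg adjustment at 0.05, without covariates. Every adjusted p for a single gene is from that test unless another is named. The SE of a log2 fold change is its size over the square root of F. CPM uses TMM-scaled library sizes. Ratios were tested by exact two-sided permutation in Python 3.11.15 (numpy 2.4.6, pandas 2.3.3, scipy 1.17.1). Simulated counts for this comparison had 200 loci changed in each run. Of loci changed by 0.5 on the log2 scale 40% were recovered (11.1% false calls, 12343 loci) and of those changed by 1, 82.5% (5.71% false calls, 12359 loci). In the data 36.7% of loci were called, far more than were changed in the simulation, so these rates need not hold for the data.

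The genes, complexes, pairs and lists were chosen with earlier results of these data known. Named are factors with a called change of at least 0.5, the extreme called members and the most abundant member of each complex, the paired genes and the untested ones, with at most 4 regulators per list and Eif4ebp1, Eif4ebp2, Eef2k, Eif2ak4 and Ppp1r15a. Other factors that are named were added after their values were seen. The choices varied were the tool (DESeq2 1.42.0; voom in limma 3.58.1), RLE factors, library-size scaling, other filters, the deposited values rounded, leaving out each sample, a replicate block, the status at the ribosomal RNA loci, loci with 1 symbol and, added after seeing the data, a GC and length correction (mgcv 1.9.3). Promoters are from RefSeq, lengths and GC content from GENCODE M21.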

Additional observations from a re-analysis of the deposited data

Results flagged for a closer look

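In groups of 5 values, the gap of the highest or lowest sample to the nearest other was set against the range of the group, with a limit of 0.71. Of 128 groups examined, 5 passed, and chance alone gives about 1 in 20, or 6.4. Of the 5 samples that stood apart, 3 were JHU083 replicate 3. Its log2 CPM of Eif3a was 7.894, beside 8.449 to 8.607 in the other JHU083 samples. Its log2 ratio of Eif4g1 to Eif4g3 was 0.6632, beside 0.09184 to 0.2446. Its log2 ratio of Eif5a to Eif5a2 was 7.244, beside 5.752 to 6.013. Vehicle replicate 3 had a log2 CPM of Eif1ad of 5.088, beside 5.254 to 5.299 in the other vehicle samples. JHU083 replicate 5 had a log2 ratio of Eif4e to Eif4e2 of 0.6161, beside 0.2083 to 0.3262.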

How the results depend on the processing

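The count of factors called lower, 16 as reported, was 14 to 20 with DESeq2, limma-voom, RLE factors, the other filters, the rounded deposited values, the loci at 0 as a covariate, loci with 1 symbol, the GC and length correction and among the samples with those loci above 0. It was 27 with library-size scaling and 0 among the samples with the loci at 0. The count called higher, 5 as reported, was 3 with library-size scaling and 3 with no filter, 2 among loci with 1 symbol, where fewer factors are tested, and 0 among the samples with the loci at 0 and among those above 0. Leaving out a library gave 10 to 27 lower and 4 to 8 higher. Of the 21 factors called, 14 kept the call in all of these fits. Of 1841 comparisons of a single gene with its reported value, 1567 stayed on the same side of the threshold in the same direction, 174 lost and 59 gained a call, and 41 changed sign, the last in 12 genes of which 0 were called. The log2 fold changes that changed sign were, with library-size scaling, -0.0023 for Eef1a1, -0.037 for Eif5b, -0.0088 for Eif2a, -0.071 for Eif3m, -0.063 for Eif3h and -0.073 for Eif4e2. Among samples with the loci at 0 they were 0.12 for Eef1b2, -0.14 for Eif5b, 0.035 for Eif2s2, 0.028 for Eif3k and -0.054 for Eif3a. Among those above 0 they were -0.023 for Eef1a1, 0.045 for Eif3j1, -0.17 for Eif3m, -0.10 for Eif3h and -0.080 for Eif4e2. With the loci as a covariate Eef1b2 was 0.0010, and with limma-voom Eif3m was -0.00098. With the GC and length correction, with and without the replicate block, Eif5b was -0.080, Eif2a -0.076, Eif3m -0.16 and Eif3e -0.060. Leaving out a library moved Eef1b2 between -0.12 and 0.039, Eif2s2 between -0.078 and 0.032, Eif3h between -0.068 and 0.073, Eif3m between -0.076 and 0.078, Eif4e2 between -0.041 and 0.053 and Eif5b between -0.0086 and 0.11. The cause of these changes was not tested.

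With the replicate number as a block, 11 factors were lower and 4 higher (1757 and 1612 of all loci). The block ended the calls of Eef1g, Eif6, Eif2b4, Eif3d, Eif4g2, Eef2kmt, Eif4ebp3, Etf1, Tsfm and Mrrf, and together with the GC and length correction also those of Eif5 and Eef1akmt1. The loci at 0 as a covariate ended the calls of Eif3d, Eif4ebp3, Etf1 and Mrrf. Deviations of samples with the same number correlated by -0.57 to 0.09 and 0 vehicle samples correlated best with their own number. The labels do not say whether the numbers pair the samples, and these correlations cannot decide it. Under the block the exact sign-flip test has a smallest possible p of 0.0625, which is above the threshold. It therefore could not pass any of the 7 ratios, whatever their values. Their differences were -0.42 for Eif4a1 over Eif4a2, -0.57 for Eif4g1 over Eif4g3, -0.51 for Eif4g1 over Eif4g2, -0.43 for Eif4e over Eif4e3, 0.31 for Eif4b over Eif4h, 0.80 for Eif1a over Eif1ax and -0.94 for Eif5a over Eif5a2. With FPKM they were, in the same order, -0.45, -0.55, -0.49, -0.41, 0.31, 0.76 and -0.93. Leaving out a library gave -0.49 to -0.38, -0.67 to -0.49, -0.53 to -0.46, -0.47 to -0.37, 0.26 to 0.37, 0.73 to 0.91 and -1.21 to -0.84, and for the pairs that did not pass -0.23 to -0.13 (Eif4e over Eif4e2, past the threshold without JHU083 replicate 5), -0.031 to 0.058 (Eif1 over Eif1b) and 0.13 to 0.23 (Eif3j1 over Eif3j2). With 11147870 to 15740700 fragments per library, a factor not detected can lie below 0.269 CPM.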
